A study of Mus musculus with 6 samples.

Results

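The calcineurin pathway was followed in mouse heart through 9 genes: the phosphatase subunit genes Ppp3ca, Ppp3cb and Ppp3r1, the transcription factor genes Nfatc1, Nfatc2, Nfatc3 and Nfatc4, and the regulator genes Rcan1 and Rcan2. Every probe of the array annotated to 1 of these symbols was taken, which gave 31 of 34885 probes with a single gene symbol and 9 of 19057 genes. Each gene was represented by its brightest probe over all arrays, and the other probes are given beside it.

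Hearts of FVB mice were profiled on 6 Illumina bead arrays. JMJD2A transgenic mice, which carry a heart-specific transgene for the histone demethylase encoded by Kdm4a, were set against wild-type mice, and each genotype had sham surgery or thoracic aortic constriction (TAC), a band around the aorta that makes the left ventricle pump against high pressure. In each genotype 1 array was sham and 2 were TAC, all from mice given as 8 weeks old, with hearts taken 3 weeks after surgery. The sources used here name no promoter, species of origin or founder line for the transgene. They also leave unsaid whether each array holds the RNA of 1 heart or of pooled hearts, so every p-value below reflects array-to-array spread that may be technical.

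Calcineurin is a phosphatase switched on by calcium and calmodulin. It removes phosphates from NFAT factors, which then enter the nucleus and act together with GATA4, MEF2 and AP-1, and its activation in cardiomyocytes drives growth of the heart. Rcan proteins bind calcineurin and restrain it, and a short Rcan1 transcript that begins inside the gene is itself an NFAT target, so its level is widely used as a readout of calcineurin activity.

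The start regions of Rcan1 and Nfatc4 are shown first because these were the 2 members whose TAC arrays did not overlap the sham arrays. RefSeq (GRCm38.p6) gives Rcan1 an upstream start, preceded by chr16:92466170-92466419, and a start inside the gene, preceded by chr16:92400079-92400328, both on the minus strand, and Nfatc4 a start preceded by chr14:55824545-55824794 on the plus strand. The 250 bases before each start were searched for GGAAA (the core that NFAT factors bind), TGANTCA (an AP-1 site) and TGACGTCA (a cAMP response element), each on both strands with a palindromic match counted once, and matches are in capitals.
Rcan1, upstream start: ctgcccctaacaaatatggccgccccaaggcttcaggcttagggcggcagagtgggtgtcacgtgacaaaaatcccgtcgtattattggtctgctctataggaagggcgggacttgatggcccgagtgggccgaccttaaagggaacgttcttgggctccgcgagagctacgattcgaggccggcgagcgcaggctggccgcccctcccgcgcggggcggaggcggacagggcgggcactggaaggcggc
Rcan1, internal start: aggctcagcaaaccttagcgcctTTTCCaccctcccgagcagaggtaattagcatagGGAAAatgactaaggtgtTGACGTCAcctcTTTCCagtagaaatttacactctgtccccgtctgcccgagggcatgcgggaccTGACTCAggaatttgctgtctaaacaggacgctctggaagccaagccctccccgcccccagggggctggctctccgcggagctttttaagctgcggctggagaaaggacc
Nfatc4, start: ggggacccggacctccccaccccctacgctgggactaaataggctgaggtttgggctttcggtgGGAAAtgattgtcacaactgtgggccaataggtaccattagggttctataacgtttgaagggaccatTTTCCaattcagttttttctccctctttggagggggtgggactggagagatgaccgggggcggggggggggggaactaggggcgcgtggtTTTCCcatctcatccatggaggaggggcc
The window at the upstream Rcan1 start held none of the 3 motifs. The window at the internal start held 3 GGAAA matches, at 227, 193 and 163 bases before the start, with 1 cAMP response element at 175 bases and 1 AP-1 match at 110 bases before it. At least 3 GGAAA matches occurred in 6.39% of all 32851 RefSeq promoter windows of this length, at least 1 TGANTCA in 6.75% and at least 1 TGACGTCA in 1.55%. The Nfatc4 window held 3 GGAAA matches, at 186, 119 and 29 bases before the start, and neither of the other motifs. RefSeq windows of 7 of the 9 genes were searched, 12 windows in all. Ppp3ca and Nfatc1 were left out of this search, so their start regions are not described. The Ppp3cb window and the first Nfatc2 window also held 3 GGAAA matches, and the other Nfatc2 window held 1. Of the 3 Rcan2 windows, the first held 2 GGAAA matches and the third an AP-1 match at 25 bases before the start. Of the 2 Nfatc3 windows, the first held 1 GGAAA match, and the single Ppp3r1 window held none of the motifs. These matches are letters in a window and were not set against binding in these hearts. The sources used here do not say which Rcan1 transcript each probe reads.

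Values are log2 of the deposited intensity, on which the median probe of each array lay at 5.82 and probes with a mean above 5.88 were tested. All 9 genes passed this filter through their brightest probe, as did 20 of the 31 probes, and the other 11 had a mean at or below it. The heart label was met: 5 of 5 measured cardiomyocyte markers were above the filter, with a summed intensity between 62699 and 70971 on the 6 arrays. The brightest Kdm4a probe read 6.70 on the wild-type sham array, 6.51 and 6.64 on the wild-type TAC arrays, 6.66 on the transgenic sham array and 6.75 and 6.45 on the transgenic TAC arrays, so the genotypes overlapped. Another tested Kdm4a probe read 6.49, 6.44 and 6.40 in wild type and 7.03, 6.86 and 6.32 in the transgenic arrays, with transgenic TAC 2 lowest of the 6, so neither probe separated the genotypes. Xist, the RNA of the silenced X chromosome in female cells, read 5.38 on the wild-type TAC 2 array and 5.41 on the transgenic sham array, against 10.36 to 11.03 on the other 4. Within the transgenic arrays alone, surgery and Xist level therefore cannot be told apart. In the wild-type TAC pair Xist differs at the same surgery, and fits with Xist as a covariate draw on that pair. The 2 transgenic TAC arrays were further from each other than the 2 wild-type TAC arrays, with an SD of the log2 difference over 11167 tested genes of 0.391 against 0.252.

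The clearest pattern among the 9 genes was in Rcan1, whose brightest probe was brighter on every TAC array than on either sham array, in both genotypes. The second such gene was Nfatc4. The 3 phosphatase subunit genes, Rcan2, Nfatc1, Nfatc2 and Nfatc3 differed by 0.18 or less on the log2 scale between TAC and sham. No member passed the limma test at an adjusted p of 0.05 in any of 6 comparisons, so the differences below are given as sizes with their errors.

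The catalytic subunits of calcineurin are encoded by Ppp3ca and Ppp3cb. The brightest Ppp3ca probe read 10.16 on the wild-type sham array, 10.38 and 10.42 on the wild-type TAC arrays, 10.29 on the transgenic sham array and 10.37 and 10.27 on the transgenic TAC arrays. All 6 values lay within 0.25 of each other, and sham and TAC overlapped. The TAC difference over both genotypes was 0.14 ± 0.13 (SE, 2 sham and 4 TAC arrays), with a 95% interval from -0.16 to 0.43, and the genotype difference was -0.01 ± 0.12. A second Ppp3ca probe read 7.89 on the wild-type sham array, 8.00 and 8.09 after TAC, 8.33 on the transgenic sham array and 8.05 and 8.07 after TAC, so its lowest and highest arrays were the 2 shams. The third Ppp3ca probe lay below the filter, between 5.44 and 5.61.

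Ppp3cb, read by 1 probe, was 11.90 on the wild-type sham array, 11.54 and 11.80 on the wild-type TAC arrays, 11.61 on the transgenic sham array and 11.46 and 11.55 on the transgenic TAC arrays. In each genotype both TAC arrays lay below the sham array, while across genotypes the groups overlapped. The TAC difference was -0.17 ± 0.12 (interval -0.45 to 0.11) and the genotype difference -0.20 ± 0.12 (interval -0.47 to 0.06), with limma adjusted p of 0.715 and 0.578.

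Ppp3r1 encodes the calcium-binding regulatory subunit, without which the catalytic subunits are inactive. Its brighter probe read 10.52 on the wild-type sham array, 10.15 and 10.63 on the wild-type TAC arrays, 10.59 on the transgenic sham array and 10.44 and 10.50 on the transgenic TAC arrays. The wild-type TAC pair spanned the whole range of the 6 arrays, and the TAC difference of -0.12 ± 0.16 (interval -0.48 to 0.23) was smaller than the 0.48 between those 2 arrays. The other Ppp3r1 probe lay below the filter, between 5.25 and 5.47. For the brightest probes of the 3 subunit genes, the intervals of the TAC and the genotype differences all lay between -0.48 and 0.43.

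Among the NFAT factors, Nfatc4 differed most with surgery. Its single probe read 8.63 on the wild-type sham array, 9.22 and 8.81 on the wild-type TAC arrays, 8.28 on the transgenic sham array and 8.81 and 9.24 on the transgenic TAC arrays. All 4 TAC arrays lay above both sham arrays, and the 2 genotypes overlapped after TAC. The TAC difference over both genotypes was 0.57 ± 0.19 on the log2 scale (interval 0.13 to 1.00), or 1.48-fold, with an unadjusted p of 0.0169 and a limma adjusted p of 0.423. Within wild type it was 0.38 ± 0.30 and within the transgenic arrays 0.75 ± 0.30, and the test of the difference between the 2 responses gave 0.36 ± 0.42 (adjusted p = 1.00). The transgenic sham array was 0.35 below the wild-type sham array, 1 array against 1, whereas the TAC means were 9.03 and 9.02.

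Nfatc1 is a factor with a known role in endocardium and valve formation. Its brightest probe read 8.78 on the wild-type sham array, 9.01 and 8.78 on the wild-type TAC arrays, 8.46 on the transgenic sham array and 8.63 and 8.78 on the transgenic TAC arrays. All 3 transgenic arrays lay below all 3 wild-type arrays, although the nearest arrays of the 2 genotypes both round to 8.78. The genotype difference was -0.23 ± 0.14 (interval -0.56 to 0.09, limma adjusted p = 0.606). It was -0.08 ± 0.09 with the median over the 6 probes, which takes in the 3 below the filter. A second probe gave the same order of genotypes with a wider gap. It read 8.67, 8.59 and 8.51 on the wild-type sham and TAC arrays, against 7.99, 8.34 and 8.43 on the transgenic ones. This difference was -0.34 ± 0.16 (interval -0.71 to 0.02), with a limma adjusted p of 0.551 among 17442 probes, and -0.17 ± 0.20 without either the wild-type or the transgenic sham array. Another probe read between 6.60 and 6.96 and overlapped between genotypes. The remaining 3 Nfatc1 probes lay below the filter.

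Of 7 tested endothelial and endocardial markers, 5 were lower on the transgenic arrays, against 52.4% of all genes, with a median of -0.23, against -0.01. The mean log2 level of these 7 was 10.13, 10.32 and 10.39 in wild type and 10.07, 9.98 and 10.51 in the transgenic arrays. Transgenic TAC 2 was thus the highest of the 6 arrays. The summed intensity of all 8 listed markers was 13336 to 16659 in wild type and 11835 to 16259 in the transgenic arrays. Of the 8, Kdr lay below the filter, and the part of this list in the Nfatc1 difference was not tested. In bulk heart RNA, fewer cells of a type and less RNA per cell cannot be told apart.

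Nfatc2 was dim and uneven. Its brightest probe read 6.74 on the wild-type sham array, 6.92 and 6.58 on the wild-type TAC arrays, 6.49 on the transgenic sham array and 6.14 and 6.74 on the transgenic TAC arrays. The transgenic TAC pair held the lowest value and one of the highest, 0.60 apart, and the genotype difference was -0.28 ± 0.17 (interval -0.67 to 0.10). It was -0.11 ± 0.15 without transgenic TAC 1 and -0.45 ± 0.15 without transgenic TAC 2. A second Nfatc2 probe, close to the filter, read 6.04 on the wild-type sham array, 6.01 and 6.04 on the wild-type TAC arrays, 5.63 on the transgenic sham array and 6.06 and 6.40 on the transgenic TAC arrays. The transgenic sham array was the low one there, and the TAC difference within transgenic was 0.60 ± 0.17 (limma adjusted p = 1.00 among probes). The other 5 Nfatc2 probes lay below the filter.

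Nfatc3, the factor whose loss is known to blunt calcineurin-driven growth of the mouse heart, was read above the filter by all 5 of its probes. The brightest read 10.04 on the wild-type sham array, 9.89 and 10.08 on the wild-type TAC arrays, 9.79 on the transgenic sham array and 9.88 and 10.06 on the transgenic TAC arrays. These values spanned 0.29 and the groups overlapped. The TAC difference was 0.06 ± 0.14 (interval -0.27 to 0.39). A second probe read 8.09, 7.60 and 7.94 in wild type and 7.93, 7.57 and 7.91 in the transgenic arrays, with the TAC 1 array lowest in each genotype. The other 3 probes ranged over 0.23 to 0.52 across the arrays, and the dimmest of them was the only one of the 5 whose transgenic arrays all lay above the wild-type arrays, at 6.04, 6.04 and 6.12 against 6.02, 5.89 and 5.98.

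Rcan1 showed the largest TAC difference of the 9 genes. Its brightest probe read 11.26 on the wild-type sham array and 11.30 on the transgenic sham array. It read 12.50 and 11.76 on the wild-type TAC arrays and 12.71 and 13.10 on the transgenic TAC arrays. As deposited intensities these are 2460 and 2515 for the shams, 5784 and 3472 for wild-type TAC, and 6708 and 8802 for transgenic TAC. In order, the levels were 11.26 for sham in wild type, 11.30 for sham in transgenic hearts, and means of 12.13 for TAC in wild type and 12.91 for TAC in transgenic hearts. The shams differed by 0.03, far less than either TAC pair did.

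**Figure D1:**
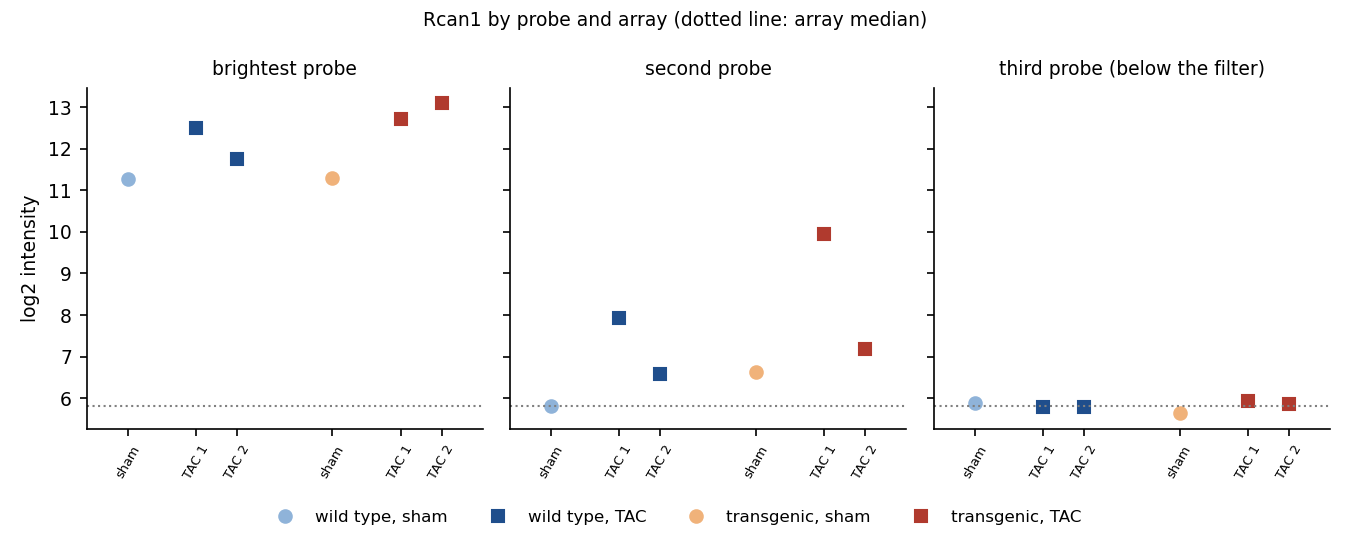
Log2 intensity (vertical axis) of the 3 Rcan1 probes on the 6 arrays, one panel a probe and one point an array, with wild type at the left of each panel, transgenic at the right, and the array median of 5.82 as a dotted line. The brightest probe runs from 11.26 on the wild-type sham array to 13.10 on a transgenic TAC array, the second from 5.81 to 9.94, and the third stays between 5.64 and 5.92.

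Over both genotypes, Rcan1 was higher after TAC by 1.24 ± 0.23 on the log2 scale (SE, 2 sham and 4 TAC arrays, interval 0.71 to 1.77), or 2.36-fold. It ranked 23 of 11167 genes by p (unadjusted p = 4.66e-04), and the limma adjusted p was 0.226. Within wild type the TAC difference was 0.87 ± 0.30 (interval 0.17 to 1.56, adjusted p = 1.00). Within the transgenic arrays it was 1.61 ± 0.30 (interval 0.92 to 2.31), or 3.06-fold, with rank 9 by p and an adjusted p of 0.795. The test of the difference between these responses gave 0.75 ± 0.43 (interval -0.24 to 1.73, adjusted p = 1.00), within the error, and with Xist as a covariate its sign turned, to -0.44 ± 0.57. These comparisons share arrays and are not separate evidence.

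After TAC, both transgenic arrays lay above both wild-type arrays, and the genotype difference was 0.78 ± 0.25 (interval 0.21 to 1.35), or 1.71-fold, with an unadjusted p of 0.0132 and a limma adjusted p of 0.599. The 2 wild-type TAC arrays were 0.74 apart, almost as far as the genotypes were. That pair difference was at least as large as that of 99.4% of the 34885 named probes, dim ones included. The transgenic TAC pair differed by -0.39, TAC 1 minus TAC 2. Over both surgeries the genotype difference was 0.53 ± 0.22 (interval 0.03 to 1.03, adjusted p = 0.403), and 0.25 ± 0.17 without wild-type TAC 2. With Xist as a covariate the difference after TAC was 0.36 ± 0.26 and the TAC difference within transgenic 0.81 ± 0.39.

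The second Rcan1 probe moved further and less evenly. It read 5.81 on the wild-type sham array, 7.94 and 6.58 on the wild-type TAC arrays, 6.63 on the transgenic sham array, and 9.94 and 7.18 on the transgenic TAC arrays. The wild-type TAC 2 array lay below the transgenic sham array, so sham and TAC overlapped across genotypes. Within each genotype both TAC arrays were higher than sham, as for 34.7% of all tested probes within wild type and 29.7% within transgenic. The transgenic TAC pair differed by 2.77 and the wild-type pair by 1.36. In the transgenic pair the order was the reverse of that of the brightest probe, which was higher on TAC 2. The TAC difference was 1.69 ± 0.67 (interval 0.15 to 3.23, limma adjusted p = 0.624 among probes) and the genotype difference after TAC 1.30 ± 0.84 (interval -0.69 to 3.28). The latter rested on 1 array: it was -0.09 ± 0.40 without transgenic TAC 1 and 2.68 ± 0.41 without transgenic TAC 2 (adjusted p = 0.0121). Across the 6 arrays the 2 probes correlated at r = 0.669, which is a description of 6 points that share groups.

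Rcan2, which is expressed in heart, brain and skeletal muscle, was bright and nearly level with its brightest probe. That probe read 12.26 on the wild-type sham array, 12.37 and 12.40 on the wild-type TAC arrays, 12.28 on the transgenic sham array and 12.01 and 12.37 on the transgenic TAC arrays. The TAC difference was 0.02 ± 0.13 (interval -0.28 to 0.31) and the genotype difference -0.12 ± 0.12 (interval -0.40 to 0.16). With the brightest probe of each gene, the upper bound of the Rcan2 TAC difference lay below the lower bound of that of Rcan1, 0.71. With other probes the 2 genes were not separated. The interval was -1.12 to 0.92 for the third Rcan2 probe and 0.15 to 3.23 for the second Rcan1 probe.

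The 3 Rcan2 probes did not move together. The second read 10.94, 11.24 and 11.00 in wild type and 11.26, 11.34 and 10.65 in the transgenic arrays. The third read 9.02, 9.18 and 8.80 in wild type and 9.32, 10.13 and 8.18 in the transgenic arrays. On both, transgenic TAC 1 was highest and transgenic TAC 2 lowest of all 6, the opposite of the brightest probe, on which transgenic TAC 1 was the lowest array. The transgenic TAC pair differed by 1.95 on the third probe. Its correlation with the brightest probe over the 6 arrays was -0.837, and that of the second probe was -0.534. The second Rcan1 probe also read far higher on transgenic TAC 1 than on TAC 2, while the 2 Ppp3ca probes above the filter differed between these arrays by 0.10 and -0.02.

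**Figure D2:**
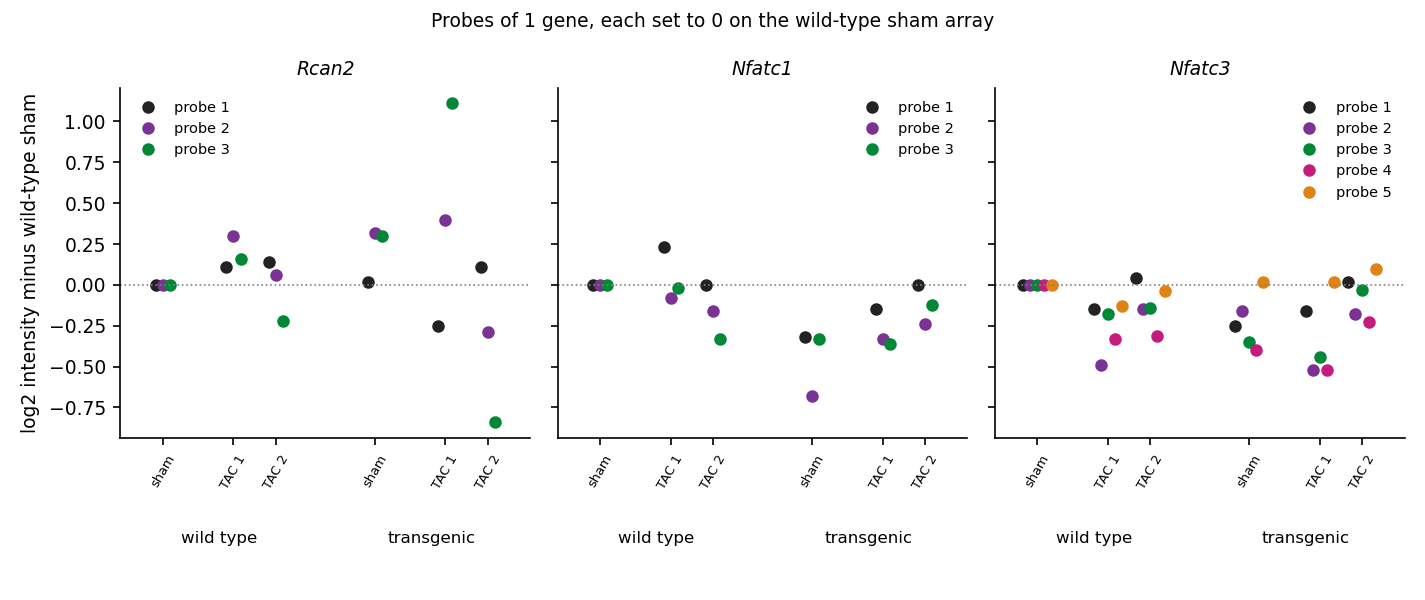
Log2 intensity minus the value of the same probe on the wild-type sham array (vertical axis) for the probes of Rcan2, Nfatc1 and Nfatc3 above the filter, one point a probe and array. The Rcan2 probes part on the transgenic TAC arrays, where probe 1 read 12.01 and 12.37 and probe 3 read 10.13 and 8.18, whereas the Nfatc1 probes lie lower on the transgenic than on the wild-type sham array.

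**Figure D3:**
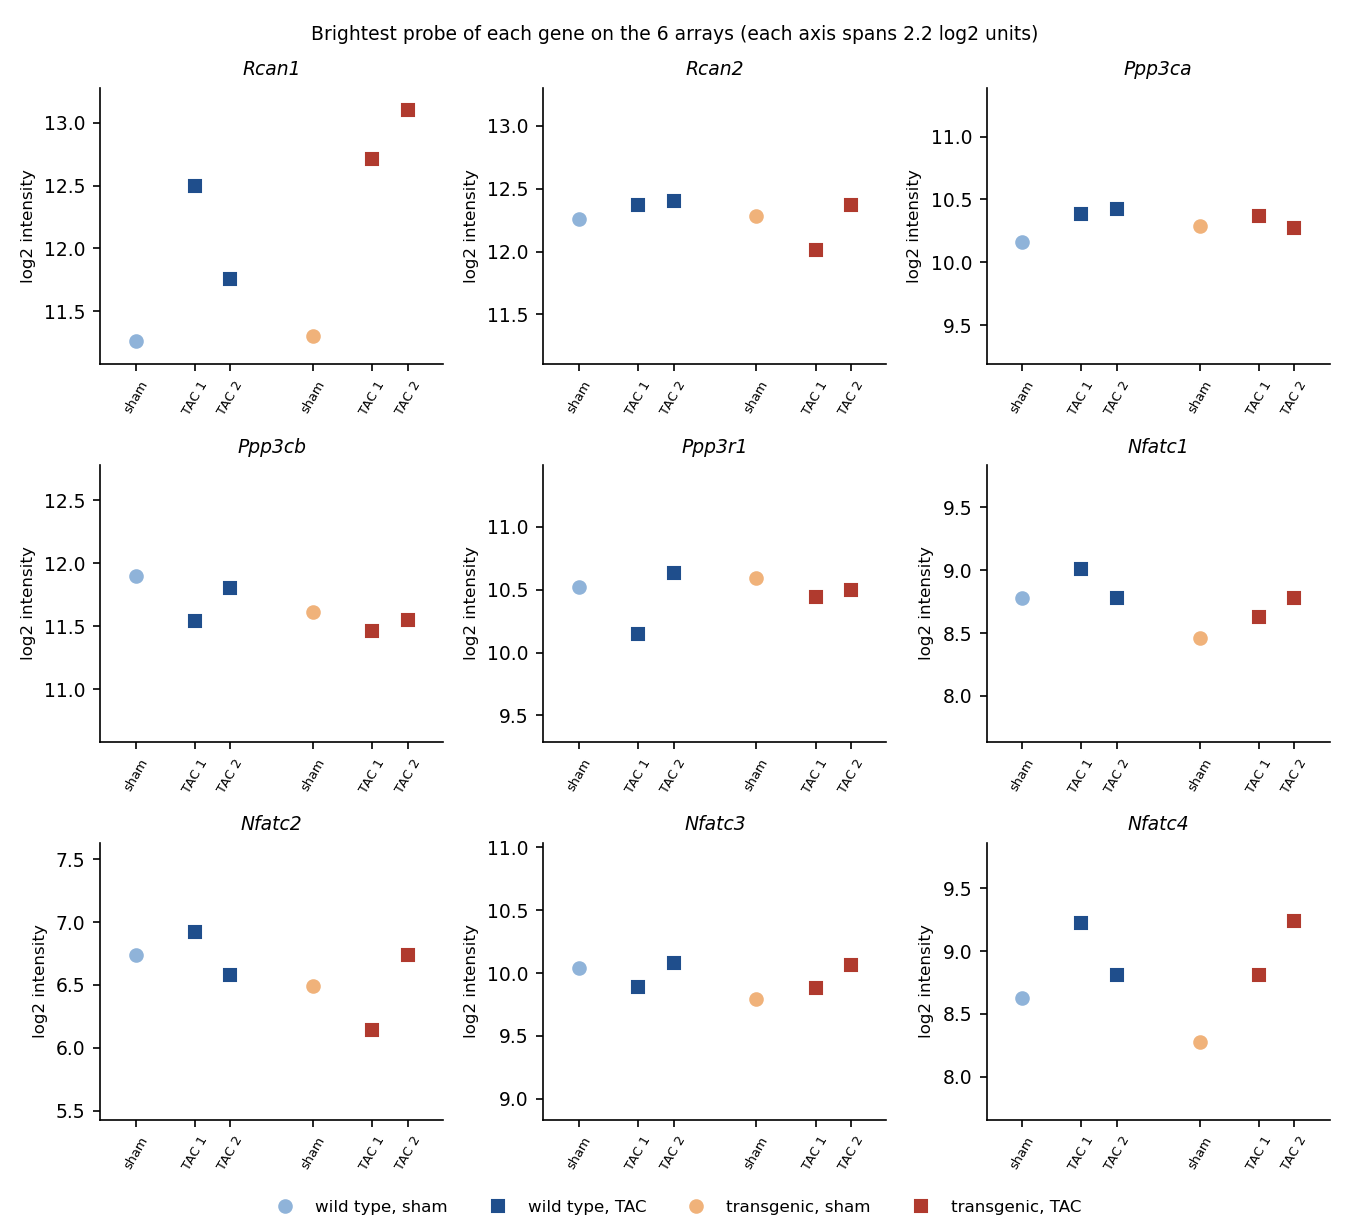
Log2 intensity (vertical axis) of the brightest probe of each of the 9 genes on the 6 arrays, one point an array, in panels whose axes span the same width. Rcan1 has the widest range, from 11.26 to 13.10, Nfatc4 the next, from 8.28 to 9.24, and Ppp3ca the narrowest, from 10.16 to 10.42.

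Over the whole table, 1 of 11167 genes (0.00895%) passed the limma test for TAC against sham over both genotypes, and 0 of the 9 members did. Without adjustment, p was under 0.05 for 2 of the 9, Rcan1 and Nfatc4, against 9.26% of all genes. TAC arrays lay above sham arrays without overlap for the same 2 genes, against 8.39% of all genes, and below them for none, against 8.16%. The median TAC difference of the members was 0.06 and that of all genes -0.01, with 6 of the 9 above zero (48.6% of all genes) and 3 below (51.4%). These shares rest on 2 genes of 9, and the members' median lay close to that of the rest of the array.

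Between genotypes over both surgeries, 106 genes (0.949%) passed the limma test and 0 of the 9 members did. At an unadjusted p under 0.05 there was 1 member, Rcan1, against 11.5% of all genes. The transgenic arrays lay below the wild-type arrays without overlap for Nfatc1 alone, against 8.55%, and above them for no member, against 7.59%. The median difference was -0.11, against -0.01 over all genes, and 7 of the 9 members lay below zero, against 52.4% of all genes. The 2 members above zero, against 47.6% of all genes, were Rcan1 and Ppp3r1 (0.07 ± 0.15). After TAC, 23 genes (0.206%) passed and again 0 members, with Rcan1 the only one at an unadjusted p under 0.05 (5.76% of all genes). Transgenic TAC arrays lay above wild-type ones for Rcan1 (15.5% of all genes) and below them for Ppp3ca and Nfatc1 (16.8%).

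In the comparisons with a single sham array, no gene of the whole table passed the limma test (0%). Within wild type, 1 member had an unadjusted p under 0.05, Rcan1 (3.56% of all genes), and within transgenic 2 had, Rcan1 and Nfatc4 (4.86%). For the difference of the responses no member had one (1.64% of all genes). The sham arrays, 1 against 1 with no test, differed by -0.35 (Nfatc4) to 0.13 (Ppp3ca), and none of the 9 differed by 1 or more, against 1.04% of all genes.

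**Figure D4:**
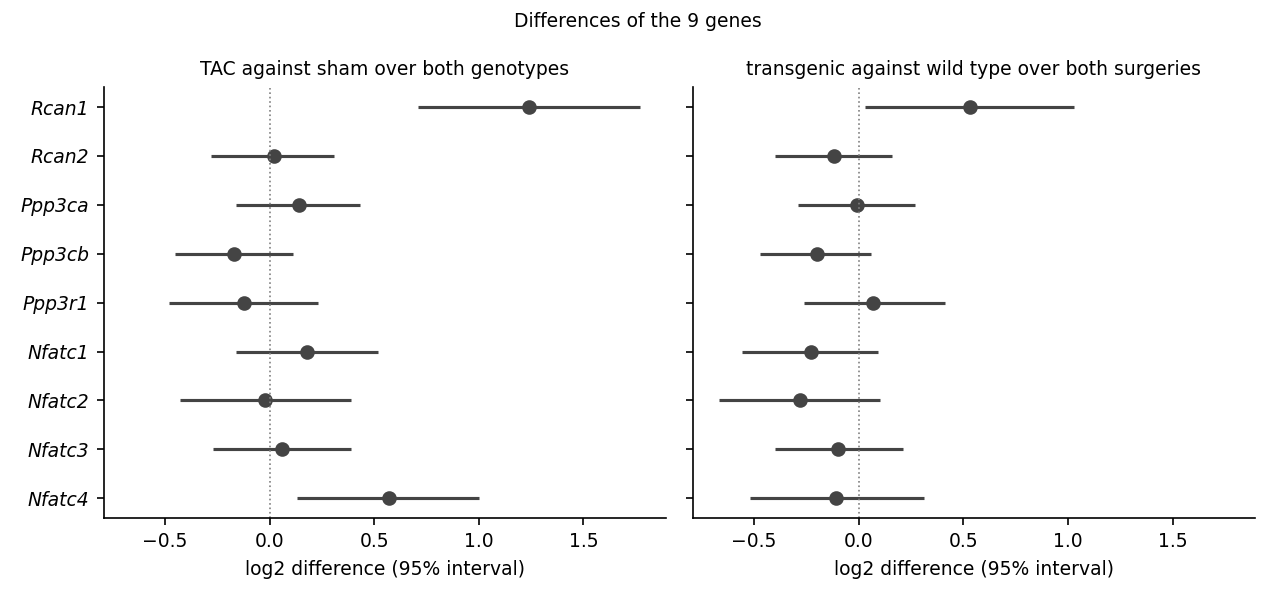
Log2 difference (horizontal axis) of each of the 9 genes between TAC and sham over both genotypes (left) and between transgenic and wild type over both surgeries (right), as points with 95% intervals from the limma fit. The interval of Rcan1 lies above zero on both sides (0.71 to 1.77, and 0.03 to 1.03 with a difference that drops from 0.53 to 0.25 without wild-type TAC 2) and that of Nfatc4 on the left (0.13 to 1.00), while the other intervals cross zero.

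The wider pathway was read through lists that held 59 tested genes. Of these 1, a hypertrophy gene, passed the limma test in 1 of the 6 comparisons, and the other lists held none that did. Of the relatives of the 9 genes, Ppp3cc, Rcan3 and Nfat5 were tested. Rcan3, the third gene of the Rcan family, read 9.49, 9.84 and 9.70 in wild type and 9.01, 9.16 and 9.64 in the transgenic arrays. Its TAC arrays were higher within each genotype (0.34 ± 0.17 over both), as for Rcan1. Such an order held for 34.4% of all genes within wild type and 31.1% within transgenic. The genotype difference of Rcan3 was -0.40 ± 0.16, opposite in sign to the 0.53 ± 0.22 of Rcan1 (limma adjusted p = 0.380 and 0.403). Nfat5, which responds to salt stress and does not need calcineurin, differed with TAC by 0.17 ± 0.18.

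Of 12 calcineurin binding proteins and inhibitors, 10 were higher after TAC, against 48.6% of all genes, with a median of 0.12, and 8 were higher in the transgenic arrays, against 47.6% of all genes, with a median of 0.11. Their differences were small. Ppia, which encodes the cyclophilin through which cyclosporin blocks calcineurin, read 13.09, 13.33 and 13.32 in wild type and 13.43, 13.64 and 13.59 in the transgenic arrays, a difference of 0.31 ± 0.08 (adjusted p = 0.168). Lmcd1, a LIM protein reported to promote calcineurin signalling in heart, read 10.00, 10.29 and 10.39 against 10.64, 10.60 and 10.59, a difference of 0.38 ± 0.13 (adjusted p = 0.290). For both genes the 3 transgenic arrays lay above the 3 wild-type arrays, as for 7.59% of all genes.

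Upstream of the phosphatase, calmodulin and calcium entry genes were read, with 2 of the 3 listed calmodulin genes measured. Calm2 and Calm3 differed with TAC by 0.05 ± 0.16 and 0.22 ± 0.17. Of 9 calcium entry genes, 4 were higher and 5 lower in each of the TAC and the genotype comparison, with a median of -0.01 in both. Over all genes the shares higher were 48.6% and 47.6%. A median near zero does not make the single genes level. Cacna1g, a T-type calcium channel gene, had the largest difference of these calcium entry genes. It read 7.35, 7.50 and 7.21 in wild type and 6.91, 6.52 and 6.88 in the transgenic arrays, a difference of -0.58 ± 0.15 (adjusted p = 0.151). Orai1, the pore of store-operated calcium entry, was -0.33 ± 0.14 (adjusted p = 0.417). For Cacna1g and Orai1 the transgenic arrays lay below the wild-type arrays without overlap, as for 8.55% of all genes. They were the 2 of the 9 with an unadjusted limma p under 0.05 between genotypes, against 11.5% of all genes.

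Downstream, 11 tested genes of a list of NFAT kinases and export factors had a median TAC difference of -0.11 and a median genotype difference of 0.04. With TAC, Csnk1d, a casein kinase gene, was 0.39 ± 0.17 higher and Prkaca, the catalytic subunit gene of protein kinase A, differed by -0.21 ± 0.12. Without overlap, the TAC arrays lay above the sham arrays for Csnk1d (8.39% of all genes) and below them for Prkaca (8.16%). Of 7 nuclear partners, Fos, which encodes an AP-1 subunit, stood out by size between genotypes, at 1.25 ± 0.36 (adjusted p = 0.198). It read 6.17, 6.73 and 6.11 in wild type and 7.80, 8.29 and 6.67 in the transgenic arrays, where transgenic TAC 2 lay below a wild-type array. Mef2c, a partner in hypertrophic transcription, was 0.27 ± 0.14 higher in the transgenic arrays.

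The calmodulin kinase and class II deacetylase branch, which runs beside calcineurin in hypertrophy, was lower in the transgenic arrays for 7 of 9 genes, with a median of -0.20, against 52.4% and -0.01 over all genes. The exception by size was Camk2b, a calmodulin kinase gene, at 0.69 ± 0.16 (adjusted p = 0.102). Camta2, a transcription coactivator held back by class II deacetylases, lay at -0.51 ± 0.12 (adjusted p = 0.120).

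Of 6 hypertrophy genes, 6 were higher after TAC, against 48.6% of all genes, with a median of 0.91, against -0.01. Acta1, a fetal actin gene, rose by 1.09 ± 0.08 (limma adjusted p = 0.00403) and was the single gene of the array past that test. It read 13.28, 14.38 and 14.33 in wild type and 12.85, 13.95 and 13.96 in the transgenic arrays. Nppb and Nppa, the natriuretic peptide genes, were higher by 0.72 ± 0.09 and 0.82 ± 0.13 (adjusted p = 0.101 and 0.226). Between genotypes after TAC, 3 of the 6 were higher in the transgenic arrays (49.2% of all genes) and 3 lower (50.8%), with a median of 0.05. Acta1 differed by -0.40 ± 0.11 (adjusted p = 0.435) and Nppb by 0.15 ± 0.11 (adjusted p = 0.999), beside the 0.78 ± 0.25 of Rcan1.

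**Figure D5:**
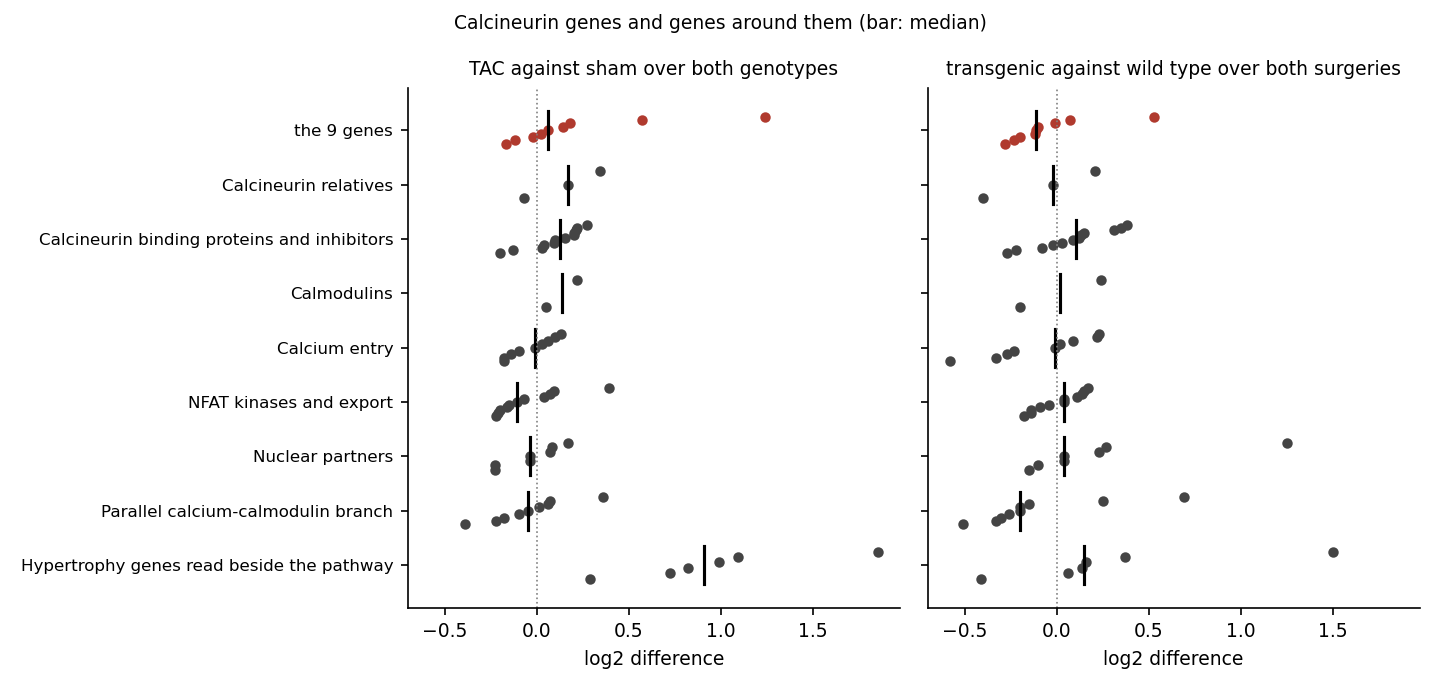
Log2 difference (horizontal axis) of the 9 genes and of the tested genes of 8 pathway lists, one point a gene and a bar at each median, for TAC minus sham in both genotypes (left) and transgenic minus wild type in both surgeries (right). The hypertrophy genes lie furthest to the right after TAC, with a median of 0.91, and the 9 genes have a median of 0.06, with Rcan1 at 1.24.

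Over the 6 arrays, the genes most like a member were taken from 2788 genes with an SD of at least 0.25, by Pearson's r, as a description of 6 points that share groups. The 5 most like Rcan1 were Nuak1 (r = 0.995), Sphk1 (0.990), Meox1 (0.986), Snhg18 (0.981) and Scml4 (0.980). Nuak1, a kinase gene of the AMPK family, read 11.19, 11.94 and 11.49 in wild type and 11.31, 12.11 and 12.24 in the transgenic arrays, the same order of arrays as Rcan1. Nppb followed Rcan1 at r = 0.916, Nfatc4 at 0.832, Nppa at 0.743, Acta1 at 0.639 and Xist at 0.606. The 5 most like Nfatc4 were Rhoc (0.995), Rhbdf1 (0.990), Fbxw17 (0.986) and the collagen genes Col4a1 and Col5a1 (both 0.985). For Nfatc2 they were Tle2 (0.980), Flii (0.979), Rgs5 (0.978), Arhgef10 (0.973) and Vps72 (0.972), of which Rgs5 marks pericytes.

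Markers of other heart cells moved with these genes. The 6 fibroblast markers, all above the filter, had a summed intensity of 16297 to 17928 on the sham arrays and 18575 to 25167 on the TAC arrays. They had a mean log2 level of 9.57 and 9.67 on the sham arrays of wild-type and transgenic hearts, 10.33 and 9.81 on the wild-type TAC arrays and 10.14 and 10.43 on the transgenic TAC arrays. All 6 were higher after TAC, against 48.6% of all genes, with a median of 0.27, against -0.01. Their TAC arrays lay above the shams as for Rcan1 and Nfatc4, and their part in those differences was not tested. Also higher after TAC were 7 of 7 endothelial and endocardial markers (median 0.21), 5 of 5 smooth muscle and pericyte markers (0.08) and 4 of 4 lymphocyte markers (0.13), against 48.6% of all genes. Of the macrophage markers 3 of 5 were higher, of the skeletal muscle markers 0 of 3 and of the adipocyte markers 0 of 1. The part of these lists was not tested either. The 3 atrial markers above the filter had a mean log2 level of 10.69 on wild-type TAC 1 and 8.68 on transgenic TAC 2. On the other 4 arrays it was 6.75 to 8.03, so the 2 arrays on which Nfatc4 was highest were also the highest in atrial genes. The fourth listed atrial marker, Bmp10, lay below the filter. With it included, the summed intensity ran from 612 to 911 on the sham arrays and from 687 to 7764 on the TAC arrays. The part of this in the Nfatc4 values was not tested. The smooth muscle and pericyte markers were lower in the transgenic arrays for 5 of 5 tested genes, against 52.4% of all genes, with a median of -0.45, beside the -0.28 ± 0.17 of Nfatc2, and their part was not tested either. Of the 5, Acta2, the smooth muscle actin gene, passed the limma test between genotypes (-1.67 ± 0.23, adjusted p = 0.0118) and after TAC (-1.94 ± 0.25, adjusted p = 0.0297). Of the 6 listed markers Cnn1 lay below the filter, and their summed intensity was 12614 to 20850 in wild type and 5180 to 8325 in the transgenic arrays. Of 5 cardiomyocyte markers, 4 were lower after TAC, against 51.4% of all genes, with a median of -0.05, against -0.01. The unadjusted limma p was under 0.05 for 2 of the 5, against 9.26% of all genes.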

How the data were processed

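The values are linear intensities, 1 for each probe on each array, as deposited by the authors. The labels' protocols name Trizol extraction, DNase I treatment and biotin labelling of cRNA with a TotalPrep kit. The scanner software, background correction and normalization are not stated in the material used. Sorted by size, the 6 columns are nearly the same (within 0.00644 in log2), as after quantile normalization, so a shift shared by all genes would not be seen.

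From these intensities, values were floored at 32 (12 values), log2 transformed and tested with limma 3.58.1 in R 4.3.3 (lmFit, eBayes with intensity trend). Each gene took its brightest probe. Probes at or below the 50th percentile of mean log2 intensity (58.7 on the linear scale) were not tested, and p-values were adjusted by Benjamini-Hochberg over 11167 genes or 17442 probes. Of 45281 probes, 18 with several gene symbols and 10378 with none were left out. The 2 main comparisons used an additive model of surgery and genotype (3 residual and 6.14 prior degrees of freedom), the others a model of 4 groups (2 and 6.25). With a single sham array per genotype, the spread in the 4-group model comes from the TAC pairs, and the additive model adds the departure from additivity. The fits were tested on simulated data. Alternatives were no filter, the median over probes, background subtraction, median centring, no intensity trend, Xist as a covariate, leaving out arrays, and the replicate block.

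The labels do not say whether the numbers in the TAC titles pair the arrays, so the main fits used no pairing. Over 11167 genes the array 1 minus array 2 differences of the 2 genotypes correlated at -0.029. This shows no large effect shared by arrays of the same number, but it cannot exclude that they were paired. All members and all their probes were named. From each pathway list the genes past a test, otherwise the 2 with the smallest p in the main comparisons, were named, with the 5 genes most like each member whose SD was at least 0.25; Kdm4a, Xist, Acta1, Nppa and Nppb were always considered. The members and lists were chosen with earlier results of these data known.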

Additional observations from a re-analysis of the deposited data

Results flagged for a closer look

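For 2 of the 20 member probes above the filter, both TAC arrays moved one way from the sham array in wild type and the other way in the transgenic arrays. With 1 sham array a genotype, a move of both TAC arrays was common. Within wild type, both lay above sham for 34.7% of all tested probes and below it for 37.2%. Within transgenic the shares were 29.7% and 29.5%. The share of all probes with opposite moves was not counted. The second Ppp3ca probe was higher after TAC in wild type (0.15) and lower in the transgenic arrays (-0.27), a difference of responses of -0.42 ± 0.35 on the log2 scale (limma adjusted p = 1.00). The second Nfatc1 probe was lower after TAC in wild type (-0.11) and higher in the transgenic arrays (0.40), a difference of 0.51 ± 0.35 (adjusted p = 1.00). Each of these rests on a single sham array per genotype, and the brightest probes of Ppp3ca and Nfatc1 did not show opposite directions.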

How the results depend on the processing

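With 1 value per gene, no member passed the limma test under any alternative, except Rcan1 within transgenic without transgenic TAC 1 (1.81 ± 0.28, adjusted p = 0.0180), where the spread rests on the wild-type pair, so that leave-one-out counts of members there ran from 0 to 1. Rcan1 kept its sign after TAC over both genotypes in 13 of 13 alternatives (0.87 to 1.65), and Nfatc4 in 13 of 13 (0.38 to 0.75). For both genes all 4 TAC arrays lay above both sham arrays, so leaving out arrays could not turn the sign. Nfatc4 has 1 probe, so the median over probes left its values unchanged. The ranges therefore show how far the size moved and are no further evidence for the direction. With 1 array left out, Rcan1 ranged from 0.41 to 1.15 between genotypes after TAC, from 0.50 to 1.23 within wild type and from 1.42 to 1.81 within transgenic, its dimmer probe after TAC from -0.09 to 2.68, and the second Nfatc2 probe within transgenic from 0.43 to 0.77 (adjusted p = 0.0350 at the latter, without transgenic TAC 1). The replicate block, fitted to the 4 TAC arrays, gave 0.78 ± 0.23 for Rcan1 (adjusted p = 0.314), 66 genes in place of 23, 0 members and 1 pathway gene.

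Some differences turned sign. For TAC, the median over probes gave -0.04 for Rcan2, -0.06 for Ppp3ca, -0.04 for Nfatc1 and -0.02 for Nfatc3, and leaving out both arrays of low Xist gave 0.18 for Nfatc2 and -0.15 for Nfatc3. Leaving out 1 array gave -0.09 to 0.13 for Rcan2, -0.14 to 0.11 for Nfatc2 and -0.06 to 0.17 for Nfatc3. Between genotypes, the median over probes gave 0.02 for Rcan2 and 0.16 for Ppp3ca (0.02 for Ppp3ca after TAC), and leaving out both arrays of low Xist 0.07 for Nfatc3. Leaving out 1 array gave -0.21 to 0.00 for Rcan2, -0.08 to 0.04 for Ppp3ca, -0.26 to 0.01 for Nfatc4 and -0.06 to 0.21 for Ppp3r1, and -0.20 to 0.23 for Nfatc4 after TAC. With Xist as a covariate, Nfatc4 after TAC was -0.23, and the difference of responses was -0.44 for Rcan1 and -0.34 for Nfatc4. The cause was not tested.

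Of the pathway genes, 1 passed for TAC over both genotypes; 2 did with no filter, 0 with no intensity trend, with Xist as a covariate or without both arrays of low Xist, and 0 to 4 with 1 array left out. In the other comparisons none passed, against 1 between genotypes, 2 within wild type and 1 within transgenic with no filter. With 1 array left out these counts ran from 0 to 5 between genotypes, 0 to 1 after TAC, 0 to 3 within wild type and 0 to 4 within transgenic. Member probes past the test then ran from 0 to 1, 0 to 2 and 0 to 3 (between genotypes, after TAC, within transgenic). Over all genes, 0 to 50 passed for TAC in place of 1, 0 to 451 between genotypes in place of 106, 0 to 181 after TAC in place of 23, and up to 11, 262 and 5 in place of 0 within wild type, within transgenic and for the difference of responses. The number of arrays limits the precision.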
